A study of Mus musculus with 10 samples.

Results

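Metallothionein and zinc response genes were described here across 10 mouse fibroblast arrays: Mt1 and Mt2, which encode the metallothioneins of most tissues, Mtf1, which encodes a zinc-sensing transcription factor, and Slc30a1, which encodes a zinc exporter. A probe set, the group of array probes that is summarised as 1 value, was taken when its only gene symbol was that of 1 of these 4 genes. This gave 10 probe sets among 34945 with a single gene symbol, which name 18193 genes, out of 45101 probe sets in all. The genes were chosen by their measured values, since the low level of Mt1 in Med23 knockout cells was the reason to look at the others. The knockout values of the 4 genes are therefore a description, without a test.

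The study asked what MED23, a subunit of Mediator, the complex through which DNA-bound activators reach RNA polymerase II, does in smooth muscle and fat cell differentiation. Mouse embryonic fibroblasts (MEFs) with wild-type Med23 (WT) or a Med23 knockout (KO) came from 9.5-day embryos and were left to immortalise themselves in culture. They were profiled without serum (0 min) and after 30 or 90 min of serum. 10T1/2 cells, a fibroblast-like line derived from mouse embryo, were profiled untreated (control), with overexpression of MAL, a coactivator of serum response factor, with Med23 knockdown, or with both. MEFs and 10T1/2 cells were maintained in medium with 10% fetal bovine serum, and the labels give the 0 min arrays as cells without serum but not how long it was withheld. Each of the 10 conditions had 1 array, and the labels name no separate lines or cultures within a genotype, so an error here is the spread left after genotype and serum time, or MAL and knockdown, are added up, and may be technical. MEFs of each genotype may be 1 line, and a difference between lines and a difference between genotypes cannot be told apart. Values are log2 levels of bulk RNA, in which fewer cells of a type and less RNA per cell cannot be told apart.

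Metallothioneins are small cysteine-rich proteins that bind zinc, copper and cadmium. Zinc entering the cell is sensed by MTF1, which moves to the nucleus, binds short metal response elements in promoters and switches on the metallothionein genes and Slc30a1. The exporter made from Slc30a1, ZnT1, sits in the plasma membrane and moves zinc out of the cytosol, and glucocorticoids and serum factors can also raise metallothionein RNA.

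The arrays matched their labels at the targeted gene. Med23 (probe set 1452064_at) was at 6.90 to 7.39 on the WT arrays and at 2.91 to 3.30 on the KO arrays, lower than the array median, the middle value of its probe sets, which was 3.86 to 3.93 in MEFs. In 10T1/2 cells Med23 was at 5.45 in control cells and 5.67 with MAL, against 4.24 with knockdown and 3.94 with both. Of the fibroblast markers, 9 genes had a mean level of 10.78 to 11.24 on the WT arrays and 10.70 to 11.17 on the KO arrays, with Thy1 alone below the array median on every MEF array. These means cover members that moved both ways: of 8 fibroblast markers fitted, 1 rose and 4 fell in the knockout (62.5%, beside 42.1% of all genes). The collagen gene Col1a2 was at 9.13 to 9.76 in WT and 13.31 to 13.40 in KO cells, and S100a4 at 13.79 to 13.91 in WT and 11.84 to 12.08 in KO cells. Of 15 macrophage, epithelial and endothelial markers, 5 were above the filter in MEFs. Among these, endothelial Emcn rose and macrophage Cd68 fell in the knockout. Emcn was below the array medians in WT cells and at least 2.45-fold higher in KO cells, and Cd68 was below them in KO cells and at least 1.27-fold lower there (levels below the median raised to it, means of 3 serum times). Each passed the filter only through the genotype where it was higher, so both calls are a description. The mean of the 5 macrophage markers was 3.70 to 3.79 on the WT arrays and 3.40 to 3.47 on the KO arrays, and that of the 5 endothelial markers 3.19 to 3.31 against 3.55 to 3.72, all below the array medians. Their part in the values below was not tested.

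The promoters of Mt1 and Mt2 are shown because these genes moved together and MTF1 binds such sequences. RefSeq places them on the same strand of chromosome 8 in the GRCm38.p6 assembly, with 1 predicted gene between Mt3 and the pair and none between Mt2 and Mt1. Each window runs from 250 bases before the annotated transcript start to 50 bases from it, Mt1 at chr8:94178839-94179138 and Mt2 at chr8:94172368-94172667, both on the plus strand. Capitals mark matches to the core of the metal response element, TGCACNC or TGCGCNC, on either strand.
Mt1: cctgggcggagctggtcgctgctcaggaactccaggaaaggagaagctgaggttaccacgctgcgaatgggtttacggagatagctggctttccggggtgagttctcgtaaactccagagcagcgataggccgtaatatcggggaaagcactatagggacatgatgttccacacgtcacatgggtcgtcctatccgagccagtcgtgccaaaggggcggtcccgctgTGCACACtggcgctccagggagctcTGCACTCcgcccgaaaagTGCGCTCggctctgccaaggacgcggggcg
Mt2: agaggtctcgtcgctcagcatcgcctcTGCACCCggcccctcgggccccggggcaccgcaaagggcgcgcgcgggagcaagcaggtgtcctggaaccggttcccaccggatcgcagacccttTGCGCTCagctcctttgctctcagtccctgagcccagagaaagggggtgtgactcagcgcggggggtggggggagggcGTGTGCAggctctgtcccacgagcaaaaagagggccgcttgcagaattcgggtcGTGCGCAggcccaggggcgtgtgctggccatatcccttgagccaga
Mt1 had 3 matches, at -23, 3 and 21 from the annotated start, and 1.97% of 32851 mouse windows of this length had at least as many. Mt2 had 4 matches, at -223 and -128 on the plus strand and at -50 and 5 on the minus strand, and 0.517% of windows had at least as many. Slc30a1, on chromosome 1, had 2 matches, both on the minus strand, as 7.11% of windows did or more. Mtf1 had none in its window, while 25.7% of all windows had at least 1. TGCGCNC contains the pair CG, which was frequent in these windows: 24 times each for Mt1 and Mt2, 36 for Slc30a1 and 25 for Mtf1. The median over all windows was 7, and the shares above were not matched for CG content. A match is a run of letters, and nothing here measured whether MTF1 binds there. The annotated start was not checked against where transcription begins in these cells, and matches outside the window were not counted. Positions and counts therefore hold for these windows alone and may differ from those of the active promoters.

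Mt1 RNA was near the top of the array range in WT cells and below the array median in KO cells. The Mt1 probe set with the highest signal, 1422557_s_at, read 11.37, 11.96 and 12.67 in WT cells at 0, 30 and 90 min, and 3.38, 3.29 and 3.50 in KO cells at the same times. The WT mean was 12.0 ± 0.65 and the KO mean 3.39 ± 0.11 (SD, n = 3 serum times). WT and KO arrays did not overlap, and the smallest gap between genotypes at 1 serum time was 7.99, at 0 min. Mt1 was chosen for its low KO level, so this gap and the error and rank below describe it and test nothing. The share of all genes whose WT and KO arrays do not overlap was not counted. The SDs are taken over serum times, not over replicates. The difference was -8.61 with a standard error of 0.23, and 1 of the 11933 genes fitted had a lower one. Because the KO levels are below the array medians they only bound the change: with such levels raised to the median of their array, Mt1 was lower by at least 176-fold at 0 min, 274-fold at 30 min and 437-fold at 90 min, and by at least 276-fold in the mean of the 3 times. The suffix of this probe set means that its probes match more than 1 transcript, so RNA of a near copy could add to the value.

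A second Mt1 probe set showed the same order at lower signal. Probe set 1451612_at read 4.83, 7.30 and 6.89 in WT cells and 3.59, 3.39 and 3.67 in KO cells. All KO arrays were below their median and all WT arrays above it. The lowest WT array was the one without serum, where the bound was 1.89-fold, against 10.9-fold at 30 min and 7.94-fold at 90 min. The bound on the mean of the 3 times, 5.46-fold, became 9.29-fold without the 0 min arrays.

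Mt2, the neighbouring gene whose protein has the same metal-binding role, was low in the same arrays. Its only probe set, 1428942_at, read 8.73, 9.43 and 11.77 in WT cells at 0, 30 and 90 min, against 3.68, 3.55 and 3.83 in KO cells. The WT mean was 9.98 ± 1.59 and the KO mean 3.69 ± 0.14 (SD, n = 3 serum times), with no overlap, a trait not counted over all genes. The difference was -6.29 with a standard error of 0.50, and 9 of the 11933 genes had a lower one. The KO minus WT gap of -5.05 without serum became -5.88 at 30 min and -7.94 at 90 min, widest where WT cells had been longest in serum. With low levels raised to the array median, Mt2 was lower in KO cells by at least 28.2-fold at 0 min, 47.5-fold at 30 min and 234-fold at 90 min. The bound on the mean of the 3 times was 68.0-fold, and it was 36.6-fold without the 90 min arrays and 105-fold without the 0 min arrays.

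The other metallothionein genes gave little signal in these cells. Mt3, known from brain, was at 4.49 to 4.81 in WT cells and 3.83 to 4.55 in KO cells, so the genotypes overlapped. Its difference of -0.32 (SE 0.16) did not pass the test (adjusted p = 0.174). Mt4, known from stratified epithelium, was at 3.14 to 3.77 on the MEF arrays and did not pass the filter on low values.

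**Figure D1:**
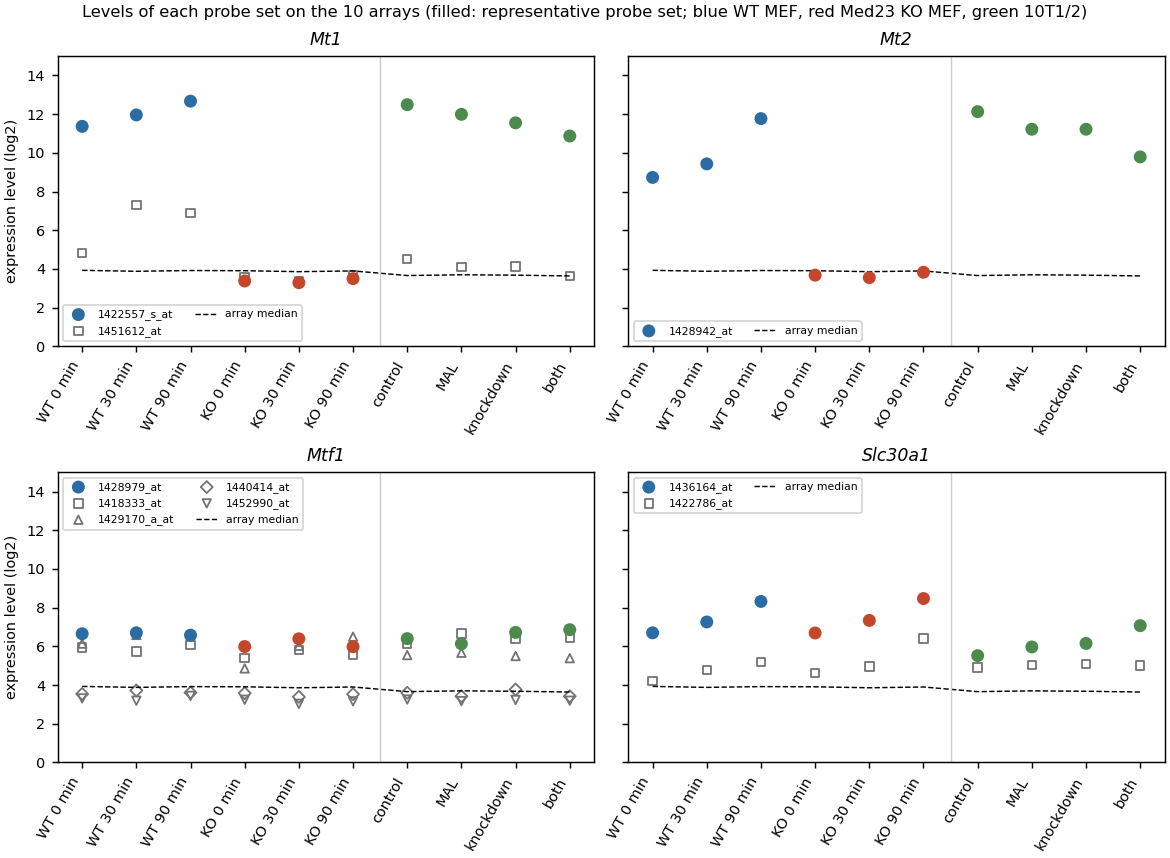
Log2 level of each of the 10 probe sets on the 10 arrays (x axis, 1 array per condition, grouped by gene); the dashed line is the median of all probe sets on each array. The brightest probe sets of Mt1 and Mt2 sit below that line on the 3 KO arrays and far above it in WT MEFs and 10T1/2 cells, while Mt1 1451612_at is close to the line in 10T1/2 cells (3.63 to 4.52) and the brightest probe sets of Mtf1 and Slc30a1 lie above it on every array.

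Mtf1 RNA remained measurable in the knockout and differed far less. Its brightest probe set, 1428979_at, read 6.65, 6.70 and 6.58 in WT cells and 5.99, 6.39 and 5.98 in KO cells. Every KO array was below every WT array, and the difference was -0.52 (SE 0.13), with 2214 of 11933 genes lower. How many of all genes separate in this way was not counted, and 42.1% of all genes fitted passed between the genotypes. The other Mtf1 probe sets were less uniform. Probe set 1418333_at read 5.95, 5.73 and 6.07 in WT and 5.41, 5.80 and 5.57 in KO cells, with KO higher by 0.07 at 30 min. Probe set 1429170_a_at read 6.14, 6.59 and 6.61 in WT and 4.86, 6.03 and 6.50 in KO cells, so that the gap was mostly that of the array without serum. The remaining 2 probe sets of Mtf1 were below the array median on 9 and on all 10 arrays.

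Slc30a1, the zinc exporter gene that MTF1 controls together with the metallothioneins, differed between genotypes by less than its error in its brighter probe set. Probe set 1436164_at read 6.70, 7.26 and 8.32 in WT cells and 6.69, 7.34 and 8.47 in KO cells at 0, 30 and 90 min. The gap between genotypes was -0.01, 0.08 and 0.15 at these times, with a mean of 0.07 (SE 0.12). WT and KO levels overlapped fully and were ordered by serum time. The dimmer probe set, 1422786_at, read 4.21, 4.78 and 5.18 in WT and 4.61, 4.95 and 6.40 in KO cells, higher in KO cells at each time by a mean of 0.60 (SE 0.22). Neither probe set of Slc30a1 showed the low level that Mt1 and Mt2 had in KO cells.

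Genes outside the 4 were counted by list against a high background, since 42.1% of all genes fitted (5018 of 11933) passed the test between KO and WT, 21.2% higher and 20.8% lower. Over the 10 lists of metal and stress genes, 80 genes were fitted, of which 12 rose and 25 fell, or 46.2%, close to that background. Their median difference was -0.24, against -0.02 over all genes. Of the 37 genes that passed, 14 lost the call when the arrays of at least 1 serum time were left out. The 25 that fell include Slc40a1, Pdk4 and Tsc22d3, which passed the filter through the WT arrays alone.

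The genes linked to MTF1 by earlier work, apart from the 4, were mostly lower in KO cells: of the 6 fitted, 5 fell (83.3%) and none rose, with a median of -0.67. Among all genes 42.1% passed, 20.8% lower. The list is small and was chosen with earlier results of these data known. It pools Slc39a10, which MTF1 is known to repress, with genes that MTF1 is known to raise. Slc40a1, which encodes the iron exporter ferroportin, fell furthest: it read 8.19, 7.73 and 6.36 in WT cells and 3.35, 3.21 and 3.28 in KO cells, where it was below the array median. Slc40a1 passed the filter through the WT arrays alone, so its call (adjusted p = 0.000279) is a description and no further support. The count of 5, the share of 83.3% and the median of -0.67 all include it. They therefore describe the list and are no test against the share of all genes. It was lower by at least 5.50-fold at 90 min, 14.6-fold at 30 min and 19.4-fold at 0 min. The iron exporter gene was also at 3.01 to 3.12 on the 4 10T1/2 arrays, where Mt1 and Mt2 were high.

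Ndrg1, a stress-responsive gene, read 9.61, 9.81 and 10.26 in WT cells and 7.90, 7.97 and 7.57 in KO cells, a fall of 2.08 or 4.23-fold (SE 0.21, adjusted p = 0.000705). Gclc, for the catalytic subunit that makes the glutathione precursor, fell by 0.76 (adjusted p = 0.022). Slc39a10, a zinc importer gene that MTF1 is known to repress, fell by 0.59 (adjusted p = 0.0112). Selenow, a selenoprotein gene, fell by 0.52 (adjusted p = 0.0201). Csrp1, a LIM domain gene, differed by 0.56 in the other direction and did not pass (adjusted p = 0.119), and Pgf was not above the filter. Of these 5 calls, 3 held when the 0 min arrays were left out, 2 when the 30 min arrays were and 4 when the 90 min arrays were; Slc40a1 and Ndrg1 passed each time.

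Zinc carriers other than Slc30a1 were mostly within the spread. Of 6 other Slc30a genes, which export zinc or load it into vesicles and organelles, only Slc30a9 passed: it was at 8.60 to 8.74 in WT cells and 7.54 to 7.79 in KO cells and fell by 1.03, or 2.04-fold (SE 0.12, adjusted p = 0.0014). Of 8 Slc39a genes, which bring zinc into the cytosol, Slc39a14 fell by 0.49 (adjusted p = 0.0274). That call was lost without the 0 min arrays (adjusted p = 0.198) or the 30 min arrays (adjusted p = 0.122). Slc39a10, which also fell, is counted above with the MTF1-linked genes and is not among the 8. The list medians were -0.22 for the Slc30a genes and -0.29 for the Slc39a genes. Neither count, 1 of 6 or 1 of 8, exceeded the 42.1% of all genes that passed.

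**Figure D2:**
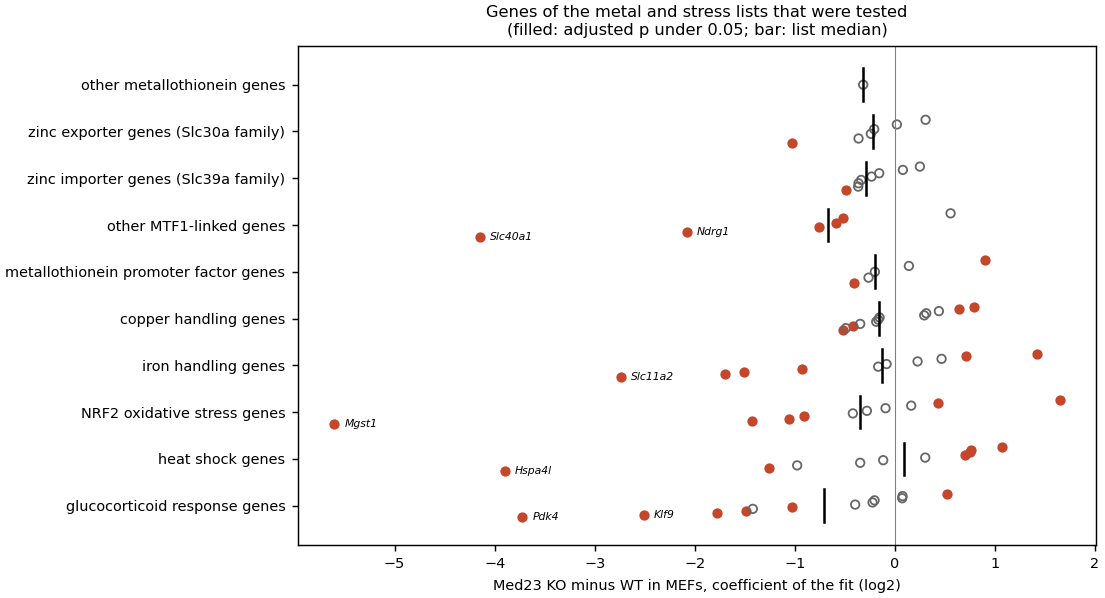
KO minus WT difference in MEFs on the log2 scale (x axis) for each fitted gene of the 10 lists (y axis), filled where the adjusted p was under 0.05, with a bar at each list's median. The 2 zinc carrier lists lie close to 0 apart from Slc30a9, and 5 of 6 MTF1-linked genes, the zinc importer gene Slc39a10 among them, lie to the left.

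Lists of genes that answer the other signals known to reach metallothionein promoters showed both directions. Of 12 glucocorticoid response genes, 5 fell and 1 rose (50.0%, beside 42.1% of all genes), with a median of -0.71. Pdk4, a kinase gene of fuel choice, was at least 7.13-fold lower in the mean of the 3 serum times. Klf9, a transcription factor gene, fell by 2.51, Fkbp5, a receptor chaperone gene, by 1.78, and Errfi1, a feedback inhibitor of growth factor receptors, by 1.03. Tsc22d3, which encodes GILZ, also fell, with a bound of 5.70-fold at 0 min, 2.99-fold at 30 min and 1.16-fold at 90 min. Pdk4 and Tsc22d3 passed the filter through the WT arrays alone, so their calls are a description. The count of 5, the share of 50.0% and the median of -0.71 include both genes, so the list is not shown to exceed the 42.1%. The glucocorticoid receptor gene Nr3c1 itself rose by 0.52 (adjusted p = 0.0203). The calls of Tsc22d3 and Nr3c1 were lost without the 0 min arrays (adjusted p = 0.0975 and 0.154) or the 30 min arrays (adjusted p = 0.143 and 0.08). Of 5 genes for factors at metallothionein promoters, Stat3 rose by 0.90 and Usf2 fell by 0.41, while Sp1, Usf1 and Ep300 did not pass. The share called was 40.0%, beside 42.1% of all genes. The Usf2 call was lost without any 1 serum time (adjusted p = 0.0998 to 0.204).

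Antioxidant genes driven by NRF2 gave 4 lower and 2 higher calls among 10, where 42.1% of all genes passed, with a median of -0.35. Whether this list exceeds that share was not tested. Mgst1, a glutathione transferase gene of membranes, fell by 5.60, or 48.6-fold. Hmox1, which encodes heme oxygenase 1, fell by 1.43 and Gclm, the partner subunit gene of Gclc, by 1.06, whereas Cat, the catalase gene, rose by 1.65. Of 10 heat shock genes, 4 rose and 2 fell, again beside 42.1% of all genes and without a test of the list, the median being 0.09. Hspa4l fell by 3.90 and Hspb1 by 1.26, and Hspe1, a mitochondrial chaperonin gene, rose by 1.07.

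Iron and copper genes divided as well. Of 10 iron handling genes, 2 rose and 4 fell, where 42.1% of all genes passed, with a median of -0.13. The iron list was not tested against that share. Slc11a2, which encodes the metal importer DMT1, fell by 2.74, or 6.68-fold, Fbxl5, an iron-sensing ubiquitin ligase gene, fell by 1.69, and Slc25a37, the mitochondrial iron carrier gene, fell by 1.51. Aco1, which encodes iron regulatory protein 1, rose by 1.42. Of 12 copper handling genes, 2 rose and 2 fell (33.3%, beside 42.1% of all genes), each by less than 1, with a median of -0.16.

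Genes around the pair on the chromosome did not show differences of this size, but most were too low in WT cells for such a fall to be measured. The WT means were 3.08 for Nlrc5, 3.90 for Slc12a3, 4.61 for Mt3 and 5.29 for Gnao1, against array medians of 3.86 to 3.93. The highest WT mean among the neighbours was 10.92, at Nudt21. Of the 20 gene models nearest to Mt1 and Mt2 in the RefSeq order, 10 on each side, 13 had a single-symbol probe set and 9 passed the filter. Among these 9, 2 rose and 2 fell, where 42.1% of all genes passed. The measured differences ran from -0.95 at Nup93 to 2.17 at Nlrc5. Nup93, a nuclear pore gene beyond Mt1, fell by 0.95: it read 8.95, 8.90 and 8.80 in WT and 8.13, 8.07 and 7.60 in KO cells (adjusted p = 0.00292). Ogfod1, beyond Mt3 and Mt4, fell by 0.54 (adjusted p = 0.0244), a call lost when the arrays at 0 min (adjusted p = 0.0828) or 30 min (adjusted p = 0.109) were dropped. Gnao1, a G protein gene at one end of the stretch, rose by 2.08 (adjusted p = 0.000726). Nlrc5, an immune regulator gene at the other end, passed the filter through the KO arrays alone. It was at 3.06 to 3.10 in WT cells, below the array medians, and higher in KO cells by at least 2.54-fold in the mean of the 3 times. Its call (adjusted p = 0.000449) is therefore a description, and it is counted among the 2 that rose. Bbs2 (0.04), Herpud1 (0.13), Slc12a3 (0.19) and Nudt21 (0.29) did not pass.

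**Figure D3:**
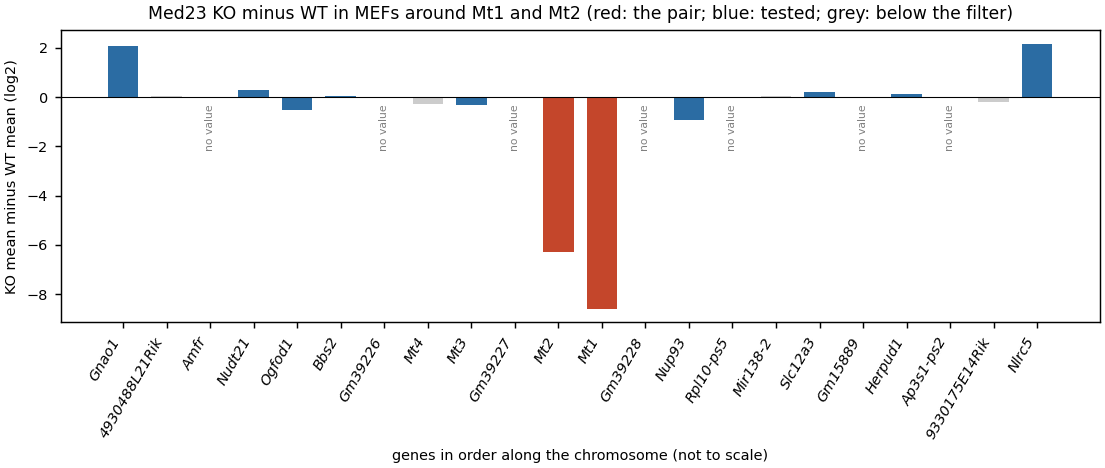
KO mean minus WT mean on the log2 scale (y axis, n = 3 serum times each) for the genes around Mt1 and Mt2 in chromosome order (x axis, not to scale); grey bars were below the filter and "no value" marks gene models without a single-symbol probe set. The bars of Mt2 and Mt1 reach -6.29 and -8.61, and the other bars lie between -0.95 and 2.17, the highest being Nlrc5, whose WT levels are below the array medians.

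In WT cells Mt1 and Mt2 read higher on the arrays with serum than without, but neither gene passed the test. For Mt1 (1422557_s_at) the WT array at 90 min was higher than that at 0 min by 1.30 and the KO array by 0.12. The fitted serum difference of Mt1 was 0.71 (SE 0.28, adjusted p = 0.146). For Mt2 the WT array at 90 min was higher by 3.04, or 8.22-fold, and the KO array by 0.15, with a fitted difference of 1.60 (SE 0.62, adjusted p = 0.141). Both WT series were ordered by serum time, and the KO values stayed below the array medians throughout. Whether the serum response of Mt1 or Mt2 differed between genotypes was not tested, since 1 array per condition leaves no spread for that term. The fit gives both genotypes 1 serum difference, so the unlike WT and KO responses enter its standard error.

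Slc30a1 rose after 90 min of serum in both genotypes, by 1.62 in WT and 1.78 in KO cells. The fitted difference was 1.70, or 3.25-fold (SE 0.15, adjusted p = 0.00502), with 138 of 11933 genes higher. Its second probe set, 1422786_at, rose by 0.97 in WT and 1.79 in KO cells (1.38, SE 0.27, adjusted p = 0.0312). Without the 30 min arrays, which leaves 1 residual degree of freedom, the adjusted p of 1436164_at was 0.0508. Mtf1 (1428979_at) did not change detectably at 90 min (-0.04, SE 0.16, adjusted p = 0.892). Thus 1 of the 4 genes passed, against 13.5% of all genes, 544 higher and 1068 lower (652 and 693 after quantile normalization).

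At 30 min none of the 4 passed, against 0.251% of all genes (30 of 11933). Slc30a1 was higher by 0.56 in WT and 0.65 in KO cells (0.61, SE 0.15, adjusted p = 0.341). Mt1 differed by 0.59 in WT and -0.09 in KO cells (0.25, SE 0.28, adjusted p = 0.908), and Mt2 by 0.70 and -0.13 (0.28, SE 0.62, adjusted p = 0.962). Mtf1 differed by 0.05 and 0.40 (0.23, SE 0.16, adjusted p = 0.818). The second Mt1 probe set had a larger WT step, 2.47, from a lower start.

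Among the other metal and stress genes, 11 rose and 4 fell after 90 min of serum, 18.8% of 80, beside 13.5% of all genes. Hmox1 rose by 2.93, or 7.59-fold (adjusted p = 0.00495), and read 8.37, 10.11 and 11.68 in WT against 7.48, 8.37 and 10.02 in KO cells. Srxn1, for sulfiredoxin, rose by 2.53, or 5.78-fold (adjusted p = 0.00583). Of the zinc carriers, Slc39a14 rose by 1.19 (adjusted p = 0.0108) and Slc30a4 by 0.72 (adjusted p = 0.0397), and Slc39a10 fell by 0.73 (adjusted p = 0.0303). Errfi1 rose by 3.49 at 30 min and 3.58 at 90 min, and Per1, a clock gene with glucocorticoid response elements, by 1.96 and 1.02. Both lost their 30 min call without the 90 min arrays (adjusted p = 0.113 and 0.0844). The other genes that rose at 90 min were Tfrc, Stat3, Hsp90aa1, Hspb1 and Bag3, and those that fell were Usf1, Slc25a28 and Keap1. Without the 30 min arrays Errfi1 alone of these passed at 90 min (adjusted p = 0.0409).

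**Figure D4:**
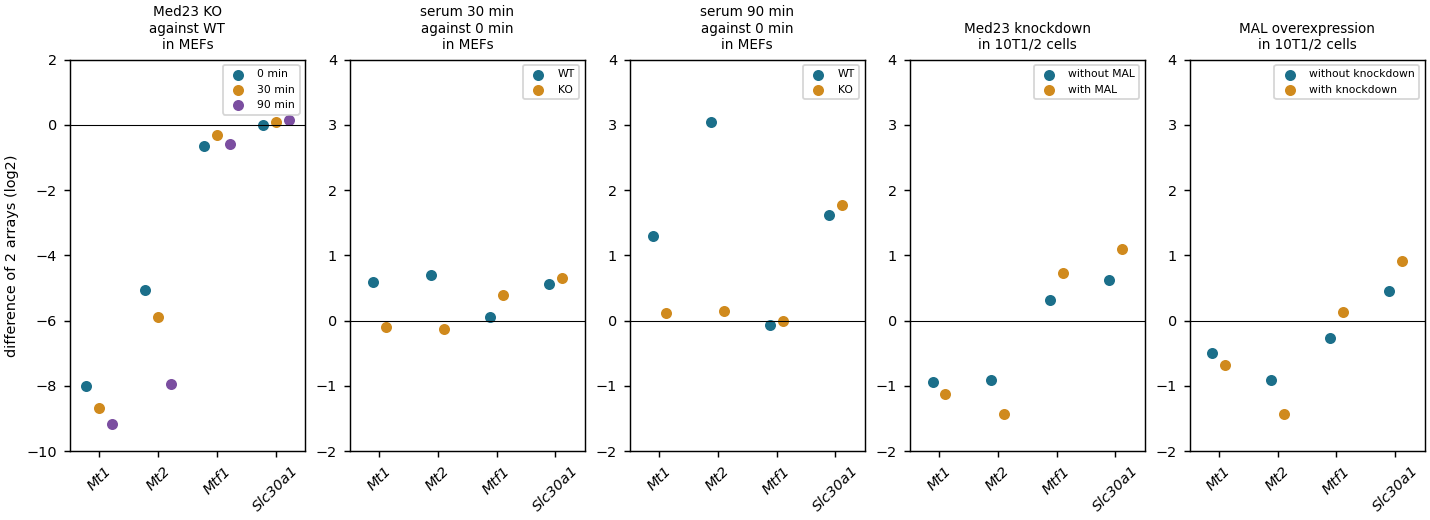
Difference between 2 arrays on the log2 scale (y axis) for the brightest probe set of each gene (x axis), 1 panel per comparison and 1 point per pair of arrays; the first panel has its own scale. Slc30a1 lies above 0 in every pair of the serum, knockdown and MAL panels, and Mt1 and Mt2 lie below 0 in every pair of the knockdown and MAL panels.

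In 10T1/2 cells Mt1 and Mt2 were high and read lower with Med23 knockdown, by a smaller difference than in KO MEFs; the gap between the cell systems was not tested. Mt1 (1422557_s_at) read 12.49 in control cells, 11.99 with MAL, 11.55 with knockdown and 10.87 with both. The knockdown difference was -0.94 without MAL and -1.12 with it (-1.03, 2.04-fold lower, SE 0.19). It did not pass the test (adjusted p = 0.0722). Mt2 read 12.13, 11.22, 11.22 and 9.79 in the same order, with knockdown differences of -0.91 and -1.43 (-1.17, 2.25-fold lower, SE 0.22, adjusted p = 0.0735). In both genes the array with both treatments was the lowest of the 4, and 1.52% of all genes had a lower knockdown difference than Mt1 and 0.965% than Mt2.

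Slc30a1 moved the other way by its brighter probe set. Probe set 1436164_at read 5.52 in control cells, 5.97 with MAL, 6.15 with knockdown and 7.07 with both, so the array with both treatments was the highest. The knockdown difference was 0.63 without MAL and 1.10 with it (0.87, SE 0.21, adjusted p = 0.0896). Probe set 1422786_at read 4.90, 5.05, 5.09 and 5.01, a knockdown difference of 0.08 (adjusted p = 0.806), so the probe sets disagree. Mtf1 (1428979_at) read 6.40, 6.13, 6.72 and 6.86, with a knockdown difference of 0.53 (SE 0.20, adjusted p = 0.16).

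None of the 4 genes passed for knockdown, where 0.0% of all genes did: limma called 0 of 12440 after Benjamini-Hochberg adjustment, and 3972 had an unadjusted p under 0.05. Other settings called up to 1187 genes on these 4 arrays and 2812 in a fit that added the 6 MEF arrays. Mt1 then passed after quantile normalization (adjusted p = 0.0494), with a trended and robust prior (adjusted p = 0.0273) and in a fit over all 10 arrays (adjusted p = 0.0307). The adjusted p of this Mt1 probe set over the alternatives ran from 0.0273 to 0.119, and that of 1451612_at was 0.208. For Mt2 the range was 0.0284 to 0.158, with a call after quantile normalization (adjusted p = 0.0488) and with the trended prior (adjusted p = 0.0284). For Slc30a1 1436164_at it was 0.0154 to 0.132, with a call in the fit over all 10 arrays. Of the 83 genes of the metal and stress lists that were fitted in 10T1/2 cells, 0 passed for knockdown, and 29 had an unadjusted p under 0.05, which 31.9% of all genes had.

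MAL overexpression gave differences of the same sign as knockdown at Mt1, Mt2 and Slc30a1, but not at Mtf1. Mt1 differed by -0.50 without knockdown and -0.68 with it (-0.59, SE 0.19, adjusted p = 0.136), and Mt2 by -0.91 and -1.43 (-1.17, SE 0.22, adjusted p = 0.0733). Slc30a1 (1436164_at) differed by 0.45 and 0.92 (0.69, SE 0.21, adjusted p = 0.132), and by 0.04 in its other probe set. Mtf1 differed by -0.07 (SE 0.20, adjusted p = 0.871). None of the 4 passed, against 0.0643% of all genes (8 of 12440). Under other settings Mt2 passed after quantile normalization (adjusted p = 0.0455) and with the trended prior (adjusted p = 0.0217), Mt1 with the trended prior (adjusted p = 0.0433) and Slc30a1 over all 10 arrays (adjusted p = 0.0332). Over the alternatives for the brightest probe sets the adjusted p reached 0.169 for Mt1, 0.181 for Mt2 and 0.176 for Slc30a1. The knockdown and MAL differences come from the same 4 arrays and share the control array. Of the 83 list genes, 0 passed for MAL, and 26 had an unadjusted p under 0.05, which 27.6% of all genes had (3432 of 12440).

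The genes whose levels ran most nearly in parallel with Mt1 over the 10 arrays were Renbp, which encodes renin binding protein (Pearson r = 0.995), Igfbp7, for a secreted growth factor binding protein (0.992), Arhgap24 (0.991), Nxt1 (0.990) and Slc12a9 (0.983), of 11422 genes compared. Mt2 had rank 10 in that order, at 0.972. For Mt2 the nearest were Mt1 (0.972), Znrf1 (0.972), Map1lc3a (0.971), Slc35b1 (0.970) and Stat5a (0.970). Mtf1 correlated with Mt1 at 0.65 and with Mt2 at 0.56, and Slc30a1 at -0.38 and -0.43. The 3 KO arrays stand apart in Mt1 and Mt2, so that a high r describes any gene that is low on those 3 arrays, whose cells and serum times are shared. Renbp read 9.21 to 9.31 in WT cells, 5.18 to 5.54 in KO cells and 8.78 to 9.50 in 10T1/2 cells.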

How the data were processed

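Gene expression was measured on 10 Affymetrix arrays, 6 of MEFs and 4 of 10T1/2 cells. The authors deposited log2 expression values per probe set. The submitters' processing notes name RMA and MAS5 without their roles, and none of the sources used here says whether MEF and 10T1/2 arrays shared a normalization. The values ran from 1.85 to 14.7, and arrays carry no read depth: their number, 1 per condition, limits the precision.

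Probe sets took their gene from the platform annotation: 34945 had 1 symbol (34741 updated through the gene ID), 932 had several and 9160 had none, and 64 were array controls. Where a gene had several probe sets, the brightest on average stood for it. Genes whose highest level passed the median of all probe sets (3.9 on the MEF arrays, 3.67 on the 10T1/2 arrays) were fitted with limma 3.58.1 in R 4.3.3: genotype plus serum time as a factor in MEFs (2 residual and 4.18 prior degrees of freedom) and MAL plus knockdown in 10T1/2 cells (1 and 3.83). The tests were two-sided, with Benjamini-Hochberg adjustment over all genes fitted and a threshold of 0.05. The main fits were also run on simulated data with known changes, and no result here rests on that run.

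Levels below the median of their array were raised to it before a fold was given as "at least". Folds are on the log2 scale and are not corrected for compression of array signals. The members and gene lists were chosen with earlier results of these data known. Named genes are the 4 members, list genes that passed with a KO difference of at least 1 or in another comparison, the 10 gene models on each side of Mt1 and Mt2, and the 5 genes with the highest correlation with each; genes of the zinc and MTF1-linked lists and others named outside this rule were chosen after their values were seen. Mt1, Mt2, Slc30a1 and Mtf1 windows came from RefSeq promoters on GRCm38.p6, and gene coordinates were not used to place probe sets. Of the list entries, 4 had no single-symbol probe set and were not analysed here (Ftl1, G6pdx, Prdx1 and Hsf1).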

Additional observations from a re-analysis of the deposited data

Results flagged for a closer look

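Mtf1 (probe set 1428979_at) had opposite signs in the 2 cell systems. It was lower in KO than in WT MEFs in every pair of arrays, by a mean of -0.52, and higher with Med23 knockdown in 10T1/2 cells in every pair, by a mean of 0.53, which did not pass the test (adjusted p = 0.16). The gap between these means was 1.05 on the log2 scale. The difference was not tested, and the comparisons are of a knockout in MEFs and a knockdown in another line. Of the other Mtf1 probe sets, 1429170_a_at was lower in both, by means of -0.65 and -0.17, and 1418333_at had means of -0.32 and 0.03.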

How the results depend on the processing

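The counts of genes called moved with the fit, and for each such change the cause was not tested except where fewer arrays or genes entered. KO against WT called 5018 genes, 8380 of the probe sets when each was fitted, 2857 without a serum term and 2398 to 4903 with 1 serum time left out. At 30 min of serum, 30 genes became 46 probe sets, 58 in a fit over all 10 arrays, 47 with a trended and robust prior, 2 with low levels raised and 10 without the 90 min arrays. At 90 min, 1612 became 819 with low levels raised and 18 without the 30 min arrays. For knockdown, 0 became 729 after quantile normalization, 1187 with the trended prior and 2812 over all 10 arrays. For MAL, 8 became 714, 953 and 2350 in the same order, and 0 with each probe set, no filter or low levels raised. Raising low levels was chosen after seeing the data, as were the list counts and fold bounds without each serum time.

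Of 122 alternatives tried on the members' tested differences, 105 kept direction and side of the threshold, 10 gained and 1 lost a call (Slc30a1 at 90 min without the 30 min arrays) and 6 reversed. Of 44 on the untested KO against WT differences, 41 moved by less than the spread and 3, all from other probe sets, by more. Many could not move: the design fixes the difference without a filter, with the trended prior, without a serum term, over all 10 arrays or for the same probe set. Among the tested differences such fits, and those without 1 serum time, likewise alter only the error. These counts are therefore no measure of stability. All 6 reversals were Mtf1, which passed in none: 0.14 (1418333_at), 1.06 (1429170_a_at) and 0.18 (quantile) at 90 min of serum, -0.17 (1429170_a_at) for knockdown, and 0.33 (1418333_at) and 0.005 (1429170_a_at) for MAL. The labels carry no replicate numbers; serum time, which pairs the KO and WT arrays, was already a term of the fit.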
